A study of Mus musculus with 6 samples.

Results

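The genes described here are 9 mouse genes of non-essential amino acid metabolism. Aldh18a1, Pycr1, Oat and Prodh make or degrade proline, Asns and Got1 make asparagine and its precursor aspartate, Ass1 and Asl make arginine, and Gpt2 exchanges alanine and glutamate. They were taken by gene name from the 20788 genes listed in at least 1 of 6 RNA sequencing libraries, and all 9 were listed in all 6. They were chosen by their FPKM values in Tyr-H and Tyr-L cells, the same values as those below, with the difference between the 2 kinds of cells already known. Levels and fold changes of the 9 genes are therefore a description and carry no test.

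The libraries came from Tyr-L and Tyr-H cells, 3 libraries of each, both of them subclones of B16, a melanoma line from the C57BL/6 mouse. Tyr-L cells are labelled as having low tyrosinase activity and Tyr-H cells as having high activity, and the study compared them because they differ in how they use tyrosine to make melanin. The subclones had been grown from colonies of sparsely seeded cells and sorted into the 2 kinds by their use of tyrosine, and how many colonies lie behind each set of libraries is not stated. Both kinds grew in low-glucose DMEM with fetal bovine serum and antibiotics, with no further treatment in the labels, and the 2 kinds are thus compared without an allele or agent that separates them by design. No source used here says whether a group's 3 libraries were grown as separate cultures, so the errors and p-values below measure the spread between these libraries, which may be technical. The authors deposited FPKM, a level per length of transcript and per depth of library, and a gene that a library did not list was taken as 0 FPKM.

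Between 16813 and 17413 genes were listed per library, and the depth, estimated from the lowest FPKM values because no counts were at hand, was between 18600000 and 21300000 fragments. The estimate kept only values within a range set beforehand, so it could not fall outside that range. The cells carried the markers of their lineage. All 7 melanocyte lineage markers reached 0.1 FPKM, with a summed level of 7343 to 7660 FPKM in Tyr-L against 5438 to 5958 FPKM in Tyr-H, and Tyr, which encodes tyrosinase, stood at 9.52 to 10.7 FPKM in Tyr-L against 19.7 to 23.8 FPKM in Tyr-H. Tyr was the exception, since the other 6 were all lower in Tyr-H as deposited with no overlap, among them Mitf, the lineage's master regulator, at 86.6 to 98.2 FPKM in Tyr-L against 23.7 to 26.8 FPKM in Tyr-H. Of all genes tested below, 43.8% likewise lay wholly lower in Tyr-H. Relative to the median of those genes, the 6 ranged from -0.08 (Tyrp1) to -1.69 (Mitf) on the log2 scale. Of 8 immune cell markers, 5 (Ptprc, Cd3e, Itgam, Adgre1 and Csf1r) were at 0 in every library, and the summed level of the 8 was 3.44 to 4.18 FPKM in Tyr-L against 4.44 to 4.83 FPKM in Tyr-H, most of it from Cd68. Of 5 fibroblast markers 4 reached 0.1 FPKM, with a sum of 0.997 to 1.03 FPKM in Tyr-L against 0.952 to 1.18 FPKM in Tyr-H, within which Col1a1 was higher in Tyr-H (0.296 to 0.344 and 0.511 to 0.708 FPKM) and Col1a2 lower (0.429 to 0.444 and 0.148 to 0.228 FPKM). None of 3 endothelial markers (Cdh5 and Kdr at 0 throughout) and none of 3 keratinocyte markers (Krt10 at 0 throughout) reached 0.1 FPKM. The part of these marker differences in the results below was not tested.

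Proline is built from glutamate by an enzyme encoded by Aldh18a1, which makes the reactive intermediate pyrroline-5-carboxylate, and by the pyrroline-5-carboxylate reductases, of which mitochondrial PYCR1 is the best known in tumours. The same intermediate can come from ornithine through OAT, and PRODH returns proline to it. Asparagine synthetase transfers an amide group from glutamine to aspartate, and argininosuccinate synthase and lyase (Ass1 and Asl) convert citrulline and aspartate into arginine, a pathway whose first gene is often silenced in human melanoma. When amino acids run short or the endoplasmic reticulum is stressed, the transcription factor ATF4 is translated and binds composite C/EBP-ATF elements, through which Asns is the textbook target.

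Of the 9 genes, 4 were at least 2-fold higher in Tyr-H than in Tyr-L and none was at least 2-fold lower. Pycr1 had the largest ratio of means, 8.67, followed by Gpt2 (3.73), Asns (3.61) and Aldh18a1 (3.07). Got1 was 1.60 times, Asl 1.18 times and Prodh 1.09 times as high in Tyr-H, Oat was at 0.941 of its Tyr-L level, and Ass1 was lower, at 0.730. A call here means an adjusted p of at most 0.05 in limma over the 14336 genes whose mean reached 0.1 FPKM, together with a log2 fold change of at least 1 in size, and 2.96% of tested genes were called higher, 5.78% lower and 8.75% either way. Since the genes were picked with this difference in view, their 4 higher and 0 lower calls are set beside those shares and nothing is read from them. In 6 of the 9 the 3 Tyr-H libraries all lay above the 3 Tyr-L libraries, in 2 all lay below, and in Prodh the groups overlapped, whereas over all tested genes 20.2% lay wholly above and 43.8% wholly below, 64% in all. In RNA from whole cultures, fewer cells that express a gene and less of its RNA per cell cannot be told apart.

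**Figure D1:**
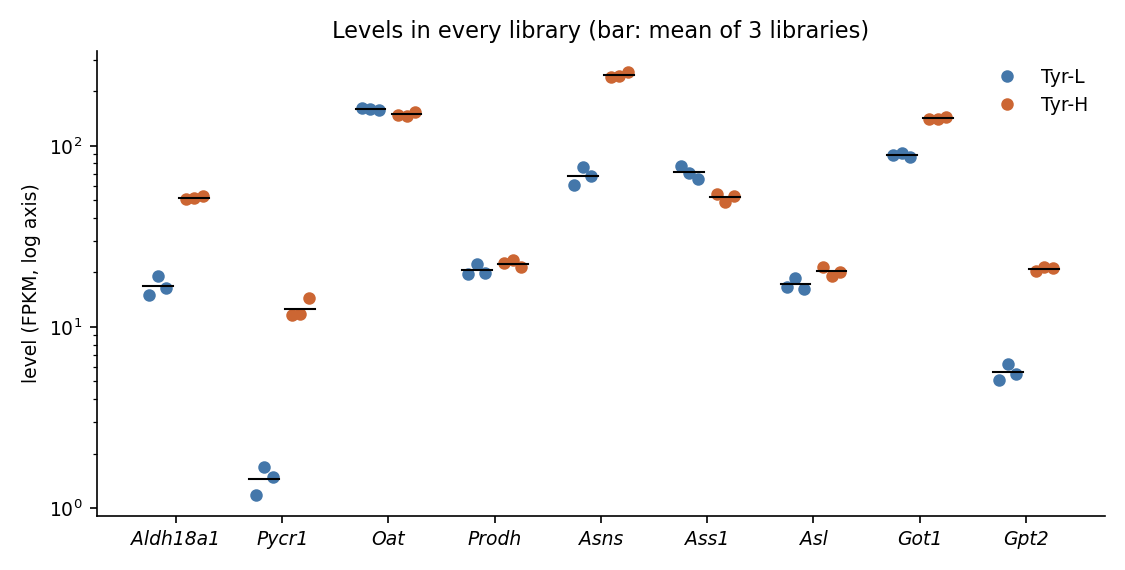
Level of each of the 9 genes in FPKM on a log axis, with a point for every library (blue, Tyr-L; orange, Tyr-H) and a black bar at the mean of 3 libraries. Aldh18a1, Pycr1, Asns and Gpt2 have wide gaps between the groups, Got1 a smaller one, and the ranges of Prodh overlap, while Ass1 is lower in Tyr-H, and so is Oat as deposited but not after median ratio scaling.

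The median tested gene was lower in Tyr-H, with a log2 fold change of -0.15 on log2(FPKM + 0.1). Relative to that median the 4 called genes were higher by 3.19 (Pycr1), 2.04 (Gpt2), 2.01 (Asns) and 1.77 (Aldh18a1) on the log2 scale, Got1 by 0.83, Asl by 0.39, Prodh by 0.28 and Oat by 0.07, and Ass1 was at -0.30. Ordered by log2 fold change among the 14336 tested genes, from the highest in Tyr-H down, Pycr1 took place 22, Gpt2 111, Asns 117, Aldh18a1 165 and Got1 848. The split of called genes over the whole table depended on the scaling, with 33.9% of called genes higher in Tyr-H as deposited, 47.7% with median ratio scaling, 55.3% with quantile normalization and 26.2% when every library was rescaled to the same total. Of the 9 genes, Oat was the one whose direction turned with the scaling.

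**Figure D2:**
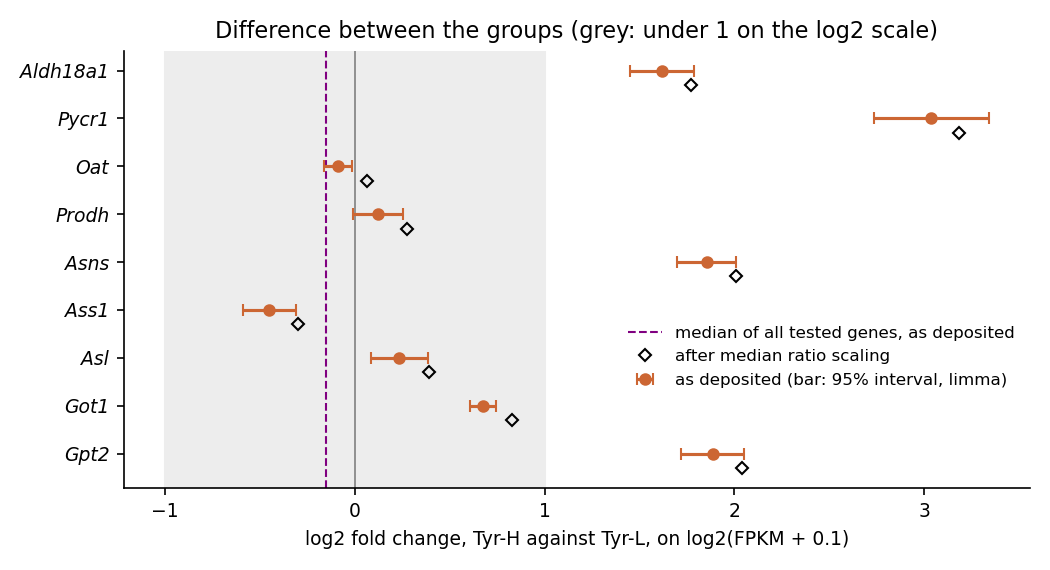
Log2 fold change of each gene, Tyr-H against Tyr-L, with its 95% interval from limma (orange) and the value after median ratio scaling (open diamonds). The intervals describe the spread between libraries and are no test. The dashed line marks the median of all tested genes at -0.15, and Pycr1, Gpt2, Asns and Aldh18a1 lie outside the grey band of changes smaller than 1 on the log2 scale.

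Stretches before the RefSeq start of 4 of the genes are shown because the genes that differed most include known targets of ATF4, and the letters of the motif can be read in some of them but not in others. The sequences are from RefSeq, build GRCm38.p6, in windows from 250 bases before to 50 bases after an annotated start. Of the 9 genes, 8 had such a window, all but Asl. The letters TGATGNAA, the core of the C/EBP-ATF composite element, were searched on both strands and were present in 1304 of 32851 windows (3.97%) and in those of Asns, Pycr1 and Got1. The E-box letters CACGTG, searched in the same way, were in 2349 windows (7.15%) and in those of Aldh18a1 and Ass1, and no window of the 9 genes held both motifs. Capitals mark the matched letters, each stretch is given in the direction of its gene, all 4 genes are on the minus strand, and positions are counted from the RefSeq start. The Asns stretch is chr6:7693225-7693319, bases -110 to -16. The Pycr1 stretch is chr11:120643779-120643878, bases -130 to -31. The Got1 stretch is chr19:43524636-43524735, bases -130 to -31, and the Aldh18a1 stretch is chr19:40588494-40588583, bases -120 to -31.
Asns: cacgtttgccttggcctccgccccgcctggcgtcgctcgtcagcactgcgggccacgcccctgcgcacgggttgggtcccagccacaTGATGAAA
Pycr1: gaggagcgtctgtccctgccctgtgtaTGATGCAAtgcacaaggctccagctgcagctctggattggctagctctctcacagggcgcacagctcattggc
Got1: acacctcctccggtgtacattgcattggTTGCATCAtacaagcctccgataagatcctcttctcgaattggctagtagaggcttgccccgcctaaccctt
Aldh18a1: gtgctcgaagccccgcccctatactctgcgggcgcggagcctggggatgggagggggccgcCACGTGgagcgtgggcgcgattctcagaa
In Asns the match TGATGAAA began 23 bases before the RefSeq start, and it lies inside the GENCODE gene, whose bounds take in the last 30 bases of the stretch. Pycr1 had TGATGCAA from base -103, and Got1 had the same letters at base -102 on the opposite strand, so they appear there as their reverse complement. Gpt2, Oat and Prodh had neither motif in the window. A match is a description of the letters and not a binding site, and the absence of a match concerns this window alone.

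Aldh18a1 (ENSMUSG00000025007, chr19:40550257-40588463, minus strand) encodes the bifunctional synthase that commits glutamate to proline. It stood at 15.1, 19.1 and 16.5 FPKM in Tyr-L libraries 1, 2 and 3 and at 51.1, 51.6 and 52.9 FPKM in Tyr-H libraries 1, 2 and 3. Every Tyr-H library was well above every Tyr-L library, and the Tyr-H values lay within 2 FPKM of each other. The means were 16.9 ± 2.05 and 51.9 ± 0.967 FPKM (SD, n = 3), a log2 fold change of 1.62 (SE 0.07). The gene contains the processed pseudogene Gm15801 on the same strand, and how the authors' counting divided reads between them is not given in the sources used here.

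Pycr1 (ENSMUSG00000025140, chr11:120635712-120643769, minus strand) encodes the reductase of the last step. Its level was the lowest of the 9 in both kinds of cells. In Tyr-L it was 1.19, 1.68 and 1.49 FPKM, and in Tyr-H 11.6, 11.8 and 14.4 FPKM. The lowest Tyr-L value corresponds to about 67.1 fragments at the estimated depth, a rough figure because that depth was bounded beforehand. The gene was listed in all 6 libraries. The groups did not overlap, with means of 1.45 ± 0.250 and 12.6 ± 1.57 FPKM (SD, n = 3) and a log2 fold change of 3.04 (SE 0.13). Tyr-H library 3 was the highest of its group, and without it the log2 fold change was 2.94.

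Oat (ENSMUSG00000030934, chr7:132557478-132576398, minus strand), which encodes the mitochondrial aminotransferase between ornithine and glutamate semialdehyde, was the most abundant of the 9 in Tyr-L. It gave 161, 159 and 157 FPKM in Tyr-L against 148, 146 and 155 FPKM in Tyr-H. The highest Tyr-H library lay just under the lowest Tyr-L library. The log2 fold change was -0.09 (SE 0.03) as deposited and 0.07 after median ratio scaling, so no direction is given for it. Oat lies within the annotated bounds of Fgfr2 on the same strand.

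Prodh (ENSMUSG00000003526, chr16:18060357-18090203, minus strand) encodes proline dehydrogenase, the first enzyme of proline breakdown. Its levels were 19.7, 22.2 and 19.9 FPKM in Tyr-L against 22.4, 23.5 and 21.3 FPKM in Tyr-H. Tyr-H library 3 lay under Tyr-L library 2, so the groups overlapped. The log2 fold change was 0.12 (SE 0.06), with a 95% interval from -0.0077 to 0.25 that describes spread and is no test. Over the alternatives tried, the log2 fold change ranged from 0.03 to 0.28. Prodh overlaps Dgcr6 on the opposite strand, and whether the counting used strand is not given in the sources used here.

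Asns (ENSMUSG00000029752, chr6:7675169-7693254, minus strand), the gene of asparagine synthetase, had 61.1, 76.0 and 68.3 FPKM in Tyr-L against 241, 244 and 256 FPKM in Tyr-H. No library of one group came near those of the other, since the lowest Tyr-H library was more than 3 times as high as the highest Tyr-L library. The means were 68.5 ± 7.46 and 247 ± 8.34 FPKM (SD, n = 3), with a log2 fold change of 1.85 (SE 0.07). In Tyr-L its range overlapped that of Ass1, whereas in Tyr-H it was the most abundant of the 9.

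Got1 (ENSMUSG00000025190, chr19:43499752-43524605, minus strand) encodes the cytosolic aspartate aminotransferase, which supplies aspartate for asparagine and arginine. It was measured at 88.9, 91.2 and 87.4 FPKM in Tyr-L against 141, 141 and 144 FPKM in Tyr-H. The groups were far apart for their spread, with SDs of 1.90 and 1.86 FPKM around means of 89.1 and 142 FPKM (n = 3). The log2 fold change of 0.67 (SE 0.03) was under the threshold of 1.

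Ass1 (ENSMUSG00000076441, chr2:31470207-31520672, plus strand), whose product joins citrulline and aspartate, was the one of the 9 that was lower in Tyr-H under every scaling. It gave 77.1, 71.2 and 65.8 FPKM in Tyr-L against 54.6, 48.9 and 52.9 FPKM in Tyr-H. All Tyr-H libraries lay below all Tyr-L libraries, and the log2 fold change of -0.45 (SE 0.06) lay between -0.55 and -0.30 over the scalings. Asl (ENSMUSG00000025533, chr5:130011258-130029247, minus strand), which encodes the next enzyme, was higher in Tyr-H. It had 16.7, 18.7 and 16.2 FPKM in Tyr-L against 21.5, 19.1 and 20.2 FPKM in Tyr-H. The lowest Tyr-H library was only just above the highest Tyr-L library, and the log2 fold change was 0.24 (SE 0.07).

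Gpt2 (ENSMUSG00000031700, chr8:85492576-85527560, plus strand) encodes the mitochondrial alanine aminotransferase. Its values were 5.11, 6.22 and 5.52 FPKM in Tyr-L against 20.3, 21.6 and 21.1 FPKM in Tyr-H. The lowest Tyr-H library was more than 3 times as high as the highest Tyr-L library, and within each group the libraries were close, with means of 5.62 ± 0.558 and 21.0 ± 0.644 FPKM (SD, n = 3). Its log2 fold change was 1.89 (SE 0.07).

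FPKM is per length, so levels can be set side by side between genes. In Tyr-L the order of the means from the top was Oat, Got1, Ass1, Asns, Prodh, Asl, Aldh18a1, Gpt2 and Pycr1, in which the neighbours Ass1 and Asns, and Asl and Aldh18a1, overlapped. In Tyr-H the order was Asns, Oat, Got1, Ass1, Aldh18a1, Prodh, Gpt2, Asl and Pycr1, in which Ass1 overlapped Aldh18a1, Prodh overlapped Gpt2, and Gpt2 overlapped Asl. Asns thus went from the fourth place to the first, and Aldh18a1 from the seventh, level with Asl, to the fifth, level with Ass1.

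Ratios within a library do not change when all its values are multiplied by the same factor, as in rescaling to the same total or median ratio scaling, whereas quantile normalization can change them. The ratio of Aldh18a1 to Prodh, proline synthesis over proline breakdown, was 0.819 ± 0.0499 in Tyr-L and 2.32 ± 0.146 in Tyr-H (SD, n = 3), and that of Aldh18a1 to Oat, the routes from glutamate and from ornithine, was 0.106 ± 0.0132 and 0.346 ± 0.00523. The ratio of Ass1 to Asl was 4.16 ± 0.421 in Tyr-L and 2.57 ± 0.0475 in Tyr-H. For none of the 3 ratios did the groups overlap, where 64% of tested genes taken singly did not overlap either. The ratios are built from genes picked with this comparison known, so nothing is read from that.

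Got1 and Gpt2 were also set against their paralogs. Got1 made up 35.4 ± 0.116% of the summed Got1 and Got2 level in Tyr-L and 41.7 ± 0.817% in Tyr-H. Gpt2 was 85.8 ± 1.22% of the summed Gpt and Gpt2 level in Tyr-L and 98.4 ± 0.847% in Tyr-H, with the sum at 6.54 ± 0.585 and 21.3 ± 0.600 FPKM. Where paralogs are alike in sequence, reads can be split between them, which was not tested.

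**Figure D3:**
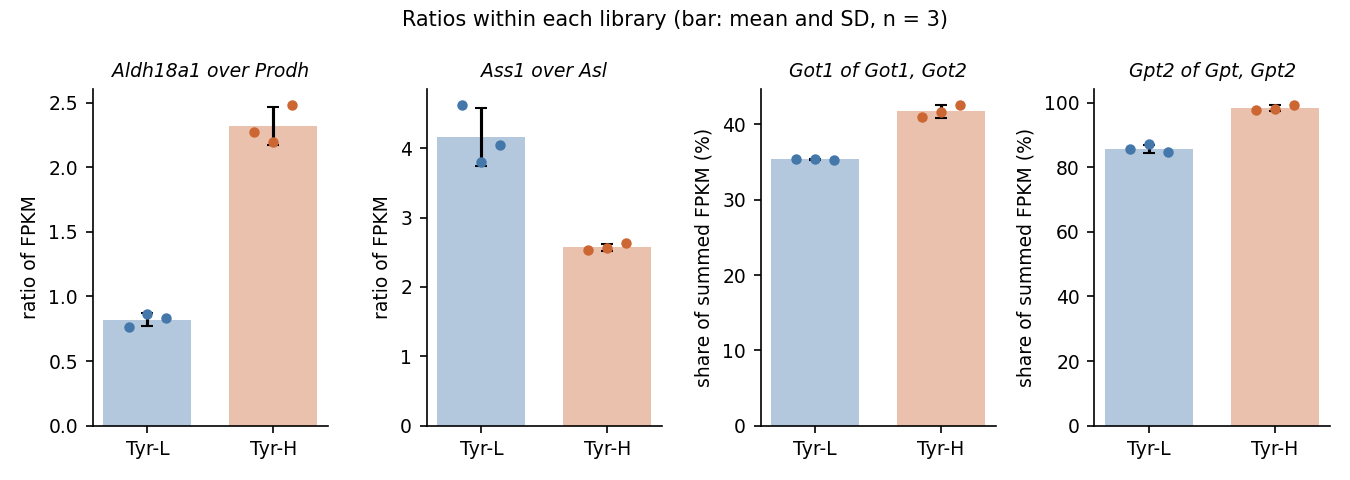
Shares and ratios of FPKM computed within each library, with a point per library and bars at the mean ± SD (n = 3) from an axis that starts at 0. From left to right, Aldh18a1 over Prodh is higher in Tyr-H, Ass1 over Asl is lower in Tyr-H, the Got1 share of Got1 and Got2 is 35.4% in Tyr-L and 41.7% in Tyr-H, and the Gpt2 share of Gpt and Gpt2 is 85.8% and 98.4%.

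The paralogs and neighbouring enzymes are not among the 9, and their tests are adjusted over all tested genes. Of the 47 other genes of enzymes and carriers around these pathways, 41 were listed in some library and 32 passed the filter on low values. Of these 32, 1 was called higher in Tyr-H (background 2.96%) and 2 lower (background 5.78%), and their median log2 fold change was 0.03, against -0.15 for all tested genes. Without the fold threshold, at an adjusted p of at most 0.05 in limma, 13 were higher and 9 lower, where 17.9% and 39.9% of all tested genes were.

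Among the 5 other proline genes, 4 were tested and none was called, with 3 higher and 1 lower by adjusted p alone. Pycr3, the cytosolic reductase that the files list as Pycrl, had a log2 fold change of 0.12 (SE 0.05, limma adjusted p = 0.043). Aldh4a1, which finishes the breakdown of proline to glutamate, had a log2 fold change of 0.17 (SE 0.05, limma adjusted p = 0.014) and overlaps Gm21969. After rescaling to the same total neither of them passed the test, with limma adjusted p = 0.605 for Pycr3 and 0.269 for Aldh4a1. Pycr3 also missed the threshold without the filter on low values, without the variance trend, with the replicate block, and without Tyr-L library 1 or 3 or Tyr-H library 2 or 3 (limma adjusted p = 0.0599 to 0.156). Prodh2 was listed in no library. Set beside them, the log2 fold changes of Aldh18a1 and Pycr1 were 1.62 and 3.04.

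Of 15 other genes of arginine and ornithine metabolism, 12 were listed but 5 passed the filter on low values. Arg1, the liver arginase, and Otc, which makes citrulline in the urea cycle, were listed in no library, and Arg2 was listed in 4 at 0.0345 to 0.0955 FPKM and was under the filter. Ddah2, which breaks down methylated arginines, was called lower, at 4.50 ± 0.298 FPKM in Tyr-L against 0.546 ± 0.0589 FPKM in Tyr-H (SD, n = 3), with a log2 fold change of -2.83 (SE 0.13, limma adjusted p = 4.3e-07), which was -1.83 with a pseudocount of 1. Odc1, the first enzyme of polyamine synthesis from ornithine, named after its values were seen, was at 205 ± 5.30 and 346 ± 1.62 FPKM (log2 fold change 0.75, limma adjusted p = 2.9e-07) and was the highest log2 fold change of the 5.

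All 13 other asparagine and aspartate genes were listed, 12 were tested and none was called as deposited, with 4 higher and 4 lower by adjusted p. Got2, the mitochondrial partner of Got1, was at 163 ± 2.86 FPKM in Tyr-L against 199 ± 4.58 FPKM in Tyr-H (SD, n = 3), a log2 fold change of 0.29 (SE 0.03, limma adjusted p = 5.8e-05) beside 0.67 for Got1. The highest log2 fold change of the 12 was that of Nars, which charges asparagine onto its tRNA and is named after its values were seen, at 1.00 (SE 0.03, limma adjusted p = 1.0e-07) and just under the threshold, which it passed at 1.15 after median ratio scaling and 1.01 after quantile normalization.

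Of the 14 other genes of glutamate metabolism and transamination, 11 were tested. Gpt, the paralog of Gpt2, went against it, with 0.926 ± 0.0731 FPKM in Tyr-L against 0.350 ± 0.177 FPKM in Tyr-H (SD, n = 3) and a log2 fold change of -1.28 (SE 0.31, limma adjusted p = 0.0060). Gpt was low in both groups, and the size of its change depended on the settings. It was no longer called with a pseudocount of 1 (log2 fold change -0.52) or without Tyr-H library 3 (-0.91). Bcat1, the cytosolic branched-chain aminotransferase, was called higher at 42.3 ± 1.38 and 87.6 ± 1.15 FPKM (log2 fold change 1.05, SE 0.04, limma adjusted p = 1.3e-07), and was under the fold threshold at 0.96 after rescaling to the same total. Glul, which makes glutamine, fell by 0.70 on the log2 scale (limma adjusted p = 3.0e-06), from 27.1 ± 0.371 to 16.7 ± 0.801 FPKM. Glud1, which links glutamate to the citric acid cycle, rose by 0.27 (limma adjusted p = 0.00053).

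The amino acid response list holds 14 genes of the ATF4 programme, all of them tested. Calls were 12 higher and 0 lower (background 2.96% and 5.78%), with a median log2 fold change of 1.81, against -0.15 for all tested genes. The list was drawn up with results of these data known, so its counts are no independent support for the values of the 9 genes. Atf4 itself was at 132 ± 10.5 FPKM in Tyr-L against 312 ± 23.4 FPKM in Tyr-H (SD, n = 3), a log2 fold change of 1.24 (SE 0.07, limma adjusted p = 9.6e-07), although ATF4 is controlled mainly by its translation, which was not measured. The largest changes were those of Trib3, a pseudokinase that ATF4 induces, at 9.76 ± 2.51 and 118 ± 12.4 FPKM (log2 fold change 3.61), and Nupr1, a stress-induced chromatin protein, at 3.93 ± 0.824 and 34.8 ± 1.42 FPKM (log2 fold change 3.14). Atf3, a transcription factor induced by ATF4, and Chac1, which degrades glutathione, rose by 2.67 and 2.65 on the log2 scale. The limma adjusted p of these 4 lay between 2.8e-07 and 7.6e-06. The response genes not called were Phgdh, the first enzyme of serine synthesis, at 0.71, and Eif2ak4, the kinase GCN2 that senses uncharged tRNA, at -0.51, and both were singled out after their values were seen. The letters TGATGNAA were in the promoter windows of 5 of the 14 (Atf3, Trib3, Chac1, Nupr1 and Slc7a11), against 3.97% of all windows. In the proline, arginine, asparagine and glutamate lists above, 3, 9, 11 and 11 genes had a window, and 0 of them held these letters.

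**Figure D4:**
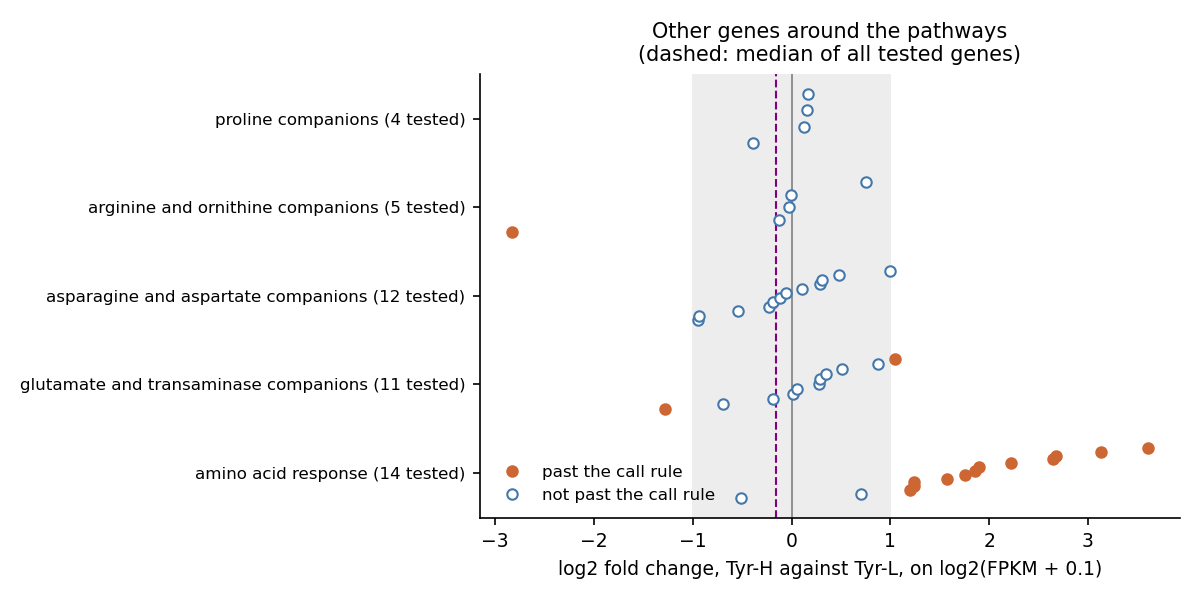
Log2 fold change, Tyr-H against Tyr-L, of the 46 tested genes around the 9, by list, with a filled orange point for a gene that passed the call rule and an open blue point for one that did not. In the enzyme and carrier lists 3 of 32 genes are filled, and in the amino acid response list 12 of 14 are filled and lie above 1.

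The libraries of a group also differed among themselves. In Tyr-L, library 2 gave the highest value of the 3 for 7 of the 9 genes, that is, for all but Oat and Ass1, where over all tested genes it was the highest for 34.0%. Against the mean of the other two Tyr-L libraries, library 2 was 1.26 times as high for Pycr1, 1.21 for Aldh18a1, 1.17 for Asns and 1.17 for Gpt2. Among the amino acid response genes library 2 was highest for 11 of 14, and it was 1.44 times as high as the other two for Trib3 and 1.73 times for Chac1. For scale, 5% of all tested genes lay above the Tyr-L mean in library 2 by more than 0.273 on the log2 scale, where Pycr1 lay above it by 0.21, Trib3 by 0.36 and Chac1 by 0.52. In Tyr-H, library 3 was the highest for 5 of the 9 genes and for 9 of the 14 response genes, and library 1 was the highest for none of the 14, where over all tested genes library 3 was the highest for 32.8% and library 1 for 29.4%. With Tyr-L library 2 left out, the log2 fold changes were 3.14 for Pycr1, 1.71 for Aldh18a1, 1.93 for Asns and 1.96 for Gpt2.

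**Figure D5:**
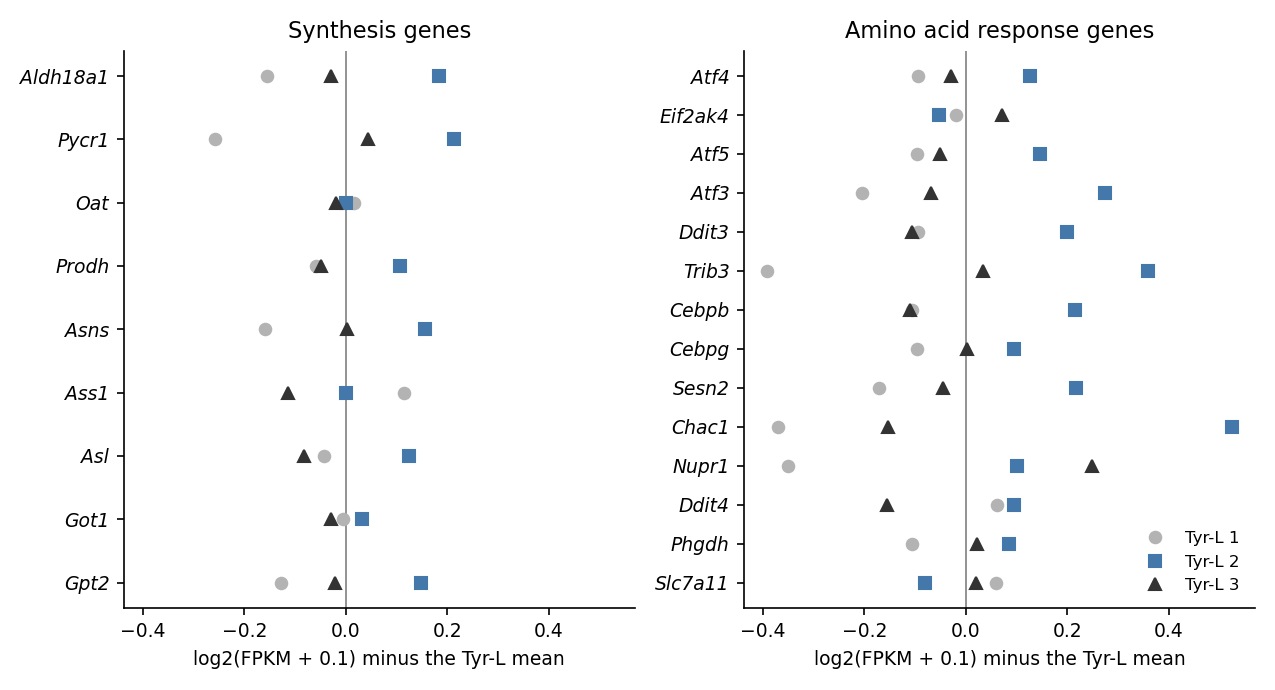
Deviation of each Tyr-L library from the Tyr-L mean on log2(FPKM + 0.1) for the 9 synthesis genes (left) and the 14 amino acid response genes (right). Blue squares, library 2, lie to the right of the other two for 7 of 9 and 11 of 14 genes.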

How the data were processed

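Tyr-L and Tyr-H RNA had been made into 3 mRNA libraries each and read as pairs of 150 bp. Per gene and library, the values the authors deposited are FPKM. The submitters' processing notes name Trimmomatic, HISAT2 and HISAT and the build GRCm38.p6, and the quantifier and annotation are not given in the sources used here. Groups came from the labels. Coordinates (counted from 1) came from GENCODE M21, in which 20709 of 20788 identifiers were found. Depth was estimated from the lowest FPKM values of genes with 1 annotated transcript of at least 1500 nt. Only values that implied a depth within a range set beforehand were kept, and their median was taken.

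Genes whose mean reached 0.1 FPKM were compared on log2(FPKM + 0.1), a scale that understates the change of low genes, with limma 3.58.1 in R 4.3.3 (eBayes with a variance trend, two-sided, Benjamini-Hochberg adjustment). The call rule follows the thresholds in the study's methods. With 3 against 3 libraries an exact permutation test of a single gene cannot go below 0.1, so none is given. In simulated data 89.1% of 192 genes changed by 1.5 on the log2 scale were called in the right direction, with 4 false calls among 14097 genes. The simulation drew noise independently for each gene and had no shift of the median gene, unlike these data. Its count of false calls therefore need not hold for them. The 9 genes, the lists and the named genes were chosen with earlier results of these data known. Named with values are all 9 genes, their paralogs, Aldh4a1, Arg1, Arg2, Otc, Glul, Glud1 and Atf4, and up to 4 called genes per list and direction with the largest change, and some items of these lists are not reported here. Of the other pathway and response genes named, Arg2, Odc1, Got2, Glul, Bcat1, Psat1, Atf3, Atf5, Ddit3, Cebpb, Cebpg, Sesn2 and Slc7a11 overlap another annotated gene, as do Mitf, Ptprc, Cd3e, Itgam, Csf1r, Col1a2, Cdh5 and Krt10 of the markers, which makes their values less certain. Replicates differed within groups by a median of 0.0953 to 0.114 per gene on the log2 scale and between groups by 0.315 to 0.371. Alternatives were pseudocounts of 0.01 and 1, no filter or a mean of at least 1 FPKM, 3 scalings, no variance trend, the replicate number as a block, no fold threshold, and each library left out. Other steps used Python 3.11.15, numpy 2.4.6, pandas 2.3.3 and matplotlib 3.10.9.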

Additional observations from a re-analysis of the deposited data

How the results depend on the processing

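As a description of genes chosen from this comparison, and not as support for them, 4 of the 9 lay past the call rule above and 0 below, and 6 and 2 without the fold threshold. Of all tested genes, 2.96% and 5.78% were past the call rule, and 17.9% and 39.9% without the fold threshold. Over all alternatives the log2 fold changes ranged from 2.47 to 3.21 for Pycr1, 1.52 to 1.77 for Aldh18a1, 1.76 to 2.01 for Asns, 1.73 to 2.04 for Gpt2 and 0.58 to 0.83 for Got1. Of the other pathway and response genes, 13 were called higher and 2 lower, against 15 and 2 with median ratio scaling, 14 and 2 with quantile normalization, and 12 and 3 after rescaling to the same total. Without the fold threshold these became 26 and 10, the lower count was 1 with a pseudocount of 1 and 1 where the mean had to reach 1 FPKM, and with each library left out it ranged from 1 to 3, the value of 1 being without Tyr-H library 3. Over all genes, 425 higher and 829 lower calls became 185 and 203 with a pseudocount of 1, 247 and 393 where the mean had to reach 1 FPKM (fewer genes tested), 611 and 494 after quantile normalization, and 2570 and 5722 without the fold threshold. The cause was not tested. Median ratio scaling moved the median log2 fold change of all genes to -0.01 and rescaling to the same total to -0.24. Deviations of same-numbered libraries correlated at 0.022, 0.013 and -0.083 across genes, and those of differently numbered ones at -0.106 to 0.092. The numbers 1 to 3 were therefore not used as pairs in the main comparison. Whether the libraries were prepared in pairs cannot be told from these correlations. With the replicate block there were 430 higher and 828 lower calls over all genes, and 4 and 0 among the 9.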

Other observations

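The values of 7 further response genes, and of a pair of enzymes, are given here after they were seen. Atf5, a transcription factor controlled like Atf4, was at 33.0 ± 3.03 FPKM in Tyr-L against 123 ± 7.56 FPKM in Tyr-H (SD, n = 3). Ddit3, which encodes the stress factor CHOP, was at 22.7 ± 2.82 and 107 ± 21.8 FPKM, and Slc7a11, the cystine importer, at 13.2 ± 0.658 and 44.9 ± 3.85 FPKM. Cebpb, a C/EBP factor that can pair with ATF4, was at 4.87 ± 0.665 and 17.9 ± 3.05 FPKM. The log2 fold changes of these 4 lay between 1.75 and 2.22. In each of them all Tyr-H libraries lay above all Tyr-L libraries, as in 20.2% of all tested genes. The other called response genes had smaller log2 fold changes, of 1.57 for Ddit4 and 1.20 for Sesn2, which both restrain mTORC1, and of 1.24 for Cebpg, a C/EBP partner of ATF4. Psat1, which makes phosphoserine in serine synthesis, was at 101 ± 9.10 and 185 ± 1.09 FPKM, with a log2 fold change of 0.87 (limma adjusted p = 2.7e-06), and Adssl1, which uses aspartate to make adenylosuccinate, was at 6.84 ± 0.283 and 3.49 ± 0.102 FPKM, with a log2 fold change of -0.95 (limma adjusted p = 6.8e-06). Neither reached the fold threshold as deposited, but Psat1 passed it at 1.02 after median ratio scaling and Adssl1 at -1.04 after rescaling to the same total.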
